A study of Mus musculus with 24 samples.

Results

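Conventional type 1 dendritic cells (cDC1) with a deletion of Zeb2, sorted from mouse spleen, were compared with cDC1 that kept the gene. Libraries were chosen by their titles: those of the CRE+ and CRE- cDC1 of the deletion line, 6 of the 24 in the series. The tested cells came from CD11cCRExZeb2fl/fl mice (CRE+, 4 libraries) and the controls from Zeb2fl/fl littermates without Cre (CRE-, 2 libraries). Both groups therefore carried floxed Zeb2 alleles on a C57Bl/6 background, and the mice were 6 to 12 weeks old and untreated. The rest of the series holds cDC2 of the same line and both subsets of a transgene line, CD11cCRExR26-Zeb2Tg/Tg (CRE+) and R26-Zeb2Tg/Tg (CRE-). Cre was driven by CD11c sequences, so carrying Cre and losing Zeb2 cannot be told apart within this line. The labels do not say whether the numbered replicates came from separate mice, and the p-values below measure the spread between these libraries only.

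Zeb2 is a zinc-finger transcription repressor that binds E-box sequences. Id2, the gene in the series title, encodes an inhibitor that keeps E proteins off DNA. The cDC1 subset takes up dead cells, presents their antigens to CD8 T cells and depends on Irf8, Batf3 and Id2, while Zeb2 is known mainly from cDC2, plasmacytoid dendritic cells and monocytes.

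The 6 libraries held 23647541 to 27095113 counts in genes, with 13521 to 13960 genes detected. Reads outside genes made up 11.39 to 15.24% of the reads, with the 2 highest values in CRE- 1 (15.24%) and CRE+ 4 (14.16%). Levels are given as CPM, the library's counts of a gene over its scaled total. Markers of the sorted subset were high in both groups: the chemokine receptor Xcr1 lay at 1030, 1020, 913 and 988 CPM in CRE+ cDC1, against 1010 and 979 CPM in CRE- cDC1. Irf8 lay at 3660, 4250, 3760 and 3930 CPM in CRE+ cDC1, against 3600 and 3740 CPM in CRE- cDC1. Of the cDC2 markers, the inhibitory receptor Sirpa stood at 1.9 to 6.3 CPM in CRE+ cDC1, against 2.14 and 7.23 CPM in CRE- cDC1. One library, CRE+ 2, stood apart from the other 5 on the first principal component (55.4, against -20.4 to -4.7 in the others), and the count of genes that passed, the maturation list and the spread are also given without it.

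Zeb2 itself was barely expressed in cDC1 with or without Cre. It lay at 0.686, 0.457, 1.06 and 2.67 CPM in CRE+ cDC1, against 0.488 and 2.56 CPM in CRE- cDC1. The groups overlapped: CRE+ 4 and CRE- 2 were both high, and the other 4 libraries were low. Of the marker lists of other cells read below, NK cells and mast cells with basophils also had their highest means in CRE+ 4 and CRE- 2. The NK cell means there were -0.14 and -0.46 log2 CPM, against -1.44 to -1.14 in the rest. The remaining lists of other cells did not share this order, and the part of other cells in the Zeb2 level was not tested. The log2 fold change was -0.31 (SE 0.48) with an adjusted p of 1.0 by edgeR (quasi-likelihood, adjusted by Benjamini-Hochberg over all tested genes), the test used throughout. Without CRE- 2 the log2 fold change was 1.31. An exact two-sided permutation test over the 15 assignments of the 6 libraries gave p = 0.867, where the smallest value possible is 0.0667. The count covers the whole gene on chromosome 2 (44983632 to 45117395, minus strand, GRCm38) and the labels do not name the floxed part, so it does not measure how many cells lost the gene. In the same line, cDC2 held 38, 41.4, 33 and 30.7 CPM of Zeb2 with Cre, against 176 and 132 CPM without it.

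Id2 was abundant in cDC1 and had no called difference. It lay at 1470, 1450, 1340 and 1230 CPM in CRE+ cDC1, against 1580 and 1310 CPM in CRE- cDC1, and the groups overlapped. The means were 1370 ± 109 CPM (SD, n = 4) and 1440 ± 190 CPM (SD, n = 2). The log2 fold change was -0.07 (SE 0.15, 95% interval -0.39 to 0.25, adjusted p = 1.0), and its sign turned without CRE- 1 (0.06) or with the controls of both lines pooled (0.02). The exact permutation test gave p = 0.667. In cDC2 of the same line the log2 fold change of Id2 was 1.13, and the difference between the subsets, cDC1 minus cDC2, was -1.21 (adjusted p = 0.00617). That call was lost without CRE- 1 of cDC1 (adjusted p = 0.0549) or CRE- 1 of cDC2 (adjusted p = 0.0977). Among the E proteins, Tcf3 lay at 84.7, 90.9, 71.2 and 80.2 CPM in CRE+ cDC1, against 72.6 and 85.9 CPM in CRE- cDC1, with overlap. The log2 fold changes of Tcf4 and Tcf12 were 0.24 and -0.11. The related repressor Zeb1 stood at 29.4, 36, 32.5 and 31.9 CPM in CRE+ cDC1, against 42.8 and 28.5 CPM in CRE- cDC1, with overlap. Of 10 genes for ZEB factors and their CtBP, Smad and chromatin partners, none passed and none had an unadjusted p under 0.05.

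**Figure D1:**
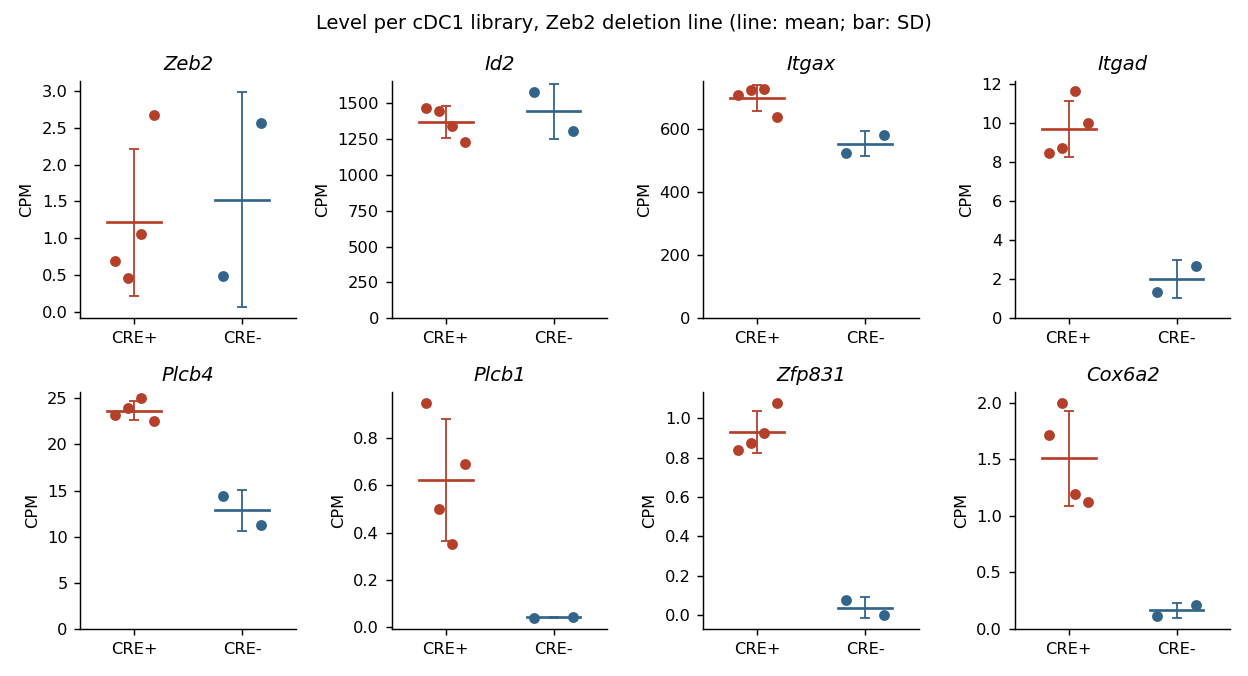
Level in CPM (vertical axes, each including 0) of 8 genes in the 4 CRE+ and 2 CRE- cDC1 libraries, one point per library, with the mean as a line and the SD as a bar. Zeb2 and Id2 overlap between groups, while Itgad, Plcb4, Zfp831, Cox6a2, Plcb1 and Itgax do not.

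Across the 13166 genes tested, 3 passed at an adjusted p under 0.05 (0.0228%), all higher in CRE+ cDC1, and none was lower. At an unadjusted p under 0.05 there were 633 (4.81%), 354 higher and 279 lower. DESeq2 called 5 higher (these 3, Cox6a2 and Eno3) and 2 lower (Hpgds and AY512931), and without CRE+ 2 the same 3 genes were higher and 0 were lower by edgeR. In CRE+ cDC2 of the same line, 307 genes were higher (2.33%) and 379 lower (2.88%), 5.21% in all. In CRE+ cDC1 of the transgene line 472 were higher (3.58%) and 450 lower (3.42%), 7% in all, and in CRE+ cDC2 of that line 43 passed (0.327%). The 3 higher genes in CRE+ cDC1 of the deletion line were Itgad, Plcb4 and Zfp831. A fit of the 6 libraries alone called none of them, with an adjusted p of 0.0966 for Itgad, 0.411 for Plcb4 and 0.674 for Zfp831.

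The intervals around the fold changes were narrow for most genes. In 9179 of 13166 genes (69.7%) the 95% interval lay within a 2-fold change in either direction. That share was 98.7% for genes at a log2 CPM of 6 or more, 98.3% between 4 and 6, 86% between 2 and 4, 28.9% between 0 and 2, and 0.233% below 0. Of 9222 genes that averaged at least 2 log2 CPM, 31 had a fold change over 2-fold in CRE+ cDC1, against 234 in the cDC2 of the same line. The median size of the log2 fold change over these genes was 0.102 in cDC1 with the deletion, 0.159 in cDC2 with the deletion, 0.165 in transgenic cDC1 and 0.121 in transgenic cDC2. For most genes under 1 CPM, a 2-fold change was thus not detectable at this depth with 2 controls.

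**Figure D2:**
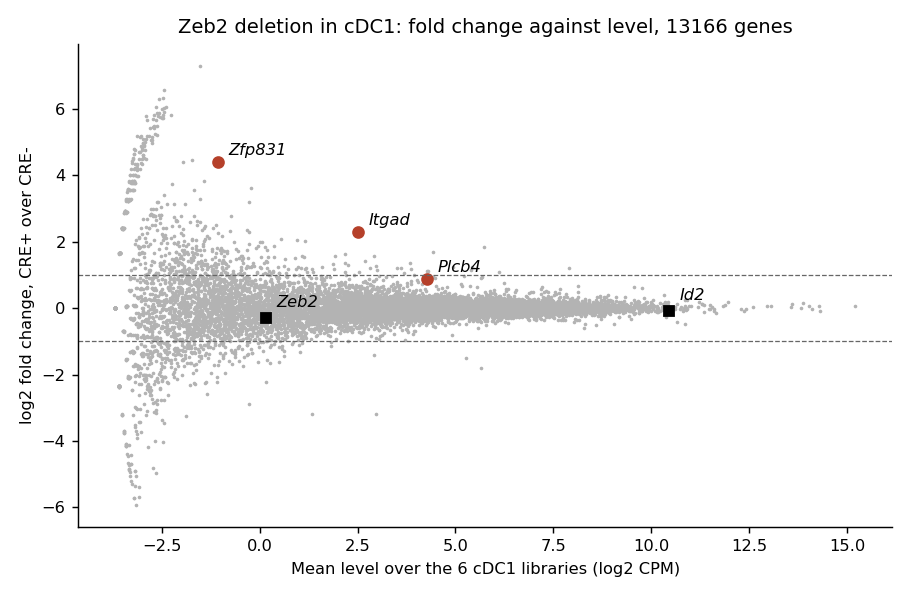
Log2 fold change of CRE+ over CRE- cDC1 (vertical axis) against the mean level over the 6 libraries in log2 CPM (horizontal axis), one grey point per tested gene, dashed lines at 2-fold, red points for the 3 genes that passed and black squares for Zeb2 and Id2. The points narrow towards 0 as the level increases, and Itgad and Plcb4 stand above the band at their levels.

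Itgad encodes the alpha D chain of a beta-2 integrin, an adhesion receptor of leukocytes. It lay at 8.46, 8.69, 11.6 and 10 CPM in CRE+ cDC1, against 1.32 and 2.69 CPM in CRE- cDC1. All 4 CRE+ libraries stood above both controls. The means were 9.68 ± 1.43 CPM (SD, n = 4) and 2 ± 0.971 CPM (SD, n = 2), a 4.83-fold rise (log2 fold change 2.28, SE 0.24, adjusted p = 5.74e-05). Itgad passed in each fit that left out 1 of the 6 libraries. It also rose by 3.37 on the log2 scale in cDC2 of the same line (adjusted p = 3.49e-09), and the difference between the subsets did not pass (-1.09, adjusted p = 0.104), though it did by DESeq2 (adjusted p = 0.031) and without CRE- 1 of cDC1 (adjusted p = 0.0357). In the transgene line it rose with Cre by 1.04 in cDC1 (adjusted p = 0.00422) and by 2.8 in cDC2 (adjusted p = 1.36e-07). Its effect in cDC1 was larger with the deletion than with the transgene by 1.24 (adjusted p = 0.0371), a call lost in 8 of 18 alternative fits, with adjusted p up to 0.367 without CRE- 1 of the deletion line.

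Plcb4 encodes a phospholipase C that acts below G protein-coupled receptors. It lay at 23.2, 24, 25 and 22.5 CPM in CRE+ cDC1, against 14.4 and 11.3 CPM in CRE- cDC1. The 4 CRE+ libraries were close together and above both controls. The means were 23.7 ± 1.09 CPM (SD, n = 4) and 12.8 ± 2.18 CPM (SD, n = 2), a 1.84-fold rise (log2 fold change 0.88, SE 0.14, adjusted p = 0.0163). The call was lost without CRE- 2 (adjusted p = 0.371) and in a fit of the 12 cDC1 libraries alone (adjusted p = 0.167). In cDC2 of the same line the rise was 3.54, and the smaller value in cDC1 differed from it (-2.66, adjusted p = 1.02e-07). With the transgene, Plcb4 rose by 0.5 in cDC1 (adjusted p = 0.029) and by 3.86 in cDC2 (adjusted p = 1.33e-12).

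Zfp831 encodes a zinc-finger protein and was the scarcest of the 3. It lay at 0.838, 0.873, 0.926 and 1.08 CPM in CRE+ cDC1, against 0.0751 and 0 CPM in CRE- cDC1. No library of one group reached the other. These values rest on 89 counts in the 4 CRE+ libraries and 2 in the 2 controls, 23.3 times as many per library total, and counting error alone (95%) allowed 6.27 to 196 times. The fitted log2 fold change was 4.39 (SE 1.1, adjusted p = 0.0211) and the call was lost without CRE- 1 (adjusted p = 0.131), CRE- 2 (adjusted p = 0.356) or CRE+ 4 (adjusted p = 0.0618). It was also lost with the controls of both lines pooled, where the log2 fold change was 2.06 (adjusted p = 0.19). The cDC1 controls of the transgene line held 0.723 and 0.0492 CPM, so the first of them was near the CRE+ level. In cDC2 of the deletion line, Zfp831 lay at 12.6 to 19.6 CPM with Cre, against 11.8 and 13.5 CPM without it. The exact permutation tests gave the smallest possible p of 0.0667 for each of Itgad, Plcb4 and Zfp831. These genes were chosen for a difference between the same libraries and had no overlap, so these p-values add nothing to the calls.

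Itgad and Plcb4 each lie near a gene that was also higher in every CRE+ cDC1 library, and these neighbours were chosen after their values were seen. Itgad (chromosome 7, 128154376 to 128223816, plus strand, GRCm38) starts 3.7 kb after the end of Itgax, the gene for CD11c whose sequences drive Cre. Itgax lay at 708, 722, 726 and 638 CPM in CRE+ cDC1, against 524 and 581 CPM in CRE- cDC1. The groups did not overlap, but the log2 fold change of 0.34 (SE 0.092) did not pass (adjusted p = 0.808). Within the annotated span of Itgad and on the opposite strand lies Cox6a2, a subunit of cytochrome c oxidase also used as a marker of plasmacytoid dendritic cells. Cox6a2 lay at 1.71, 2, 1.19 and 1.12 CPM in CRE+ cDC1, against 0.113 and 0.21 CPM in CRE- cDC1. Its log2 fold change of 3.21 did not pass here (adjusted p = 0.0774). It passed with the replicate number as a block (3.47, adjusted p = 0.00649), by DESeq2 (adjusted p = 0.00152), without the filter on low counts (adjusted p = 0.0274), in the 12 libraries of the deletion line (adjusted p = 0.0266) and with pooled controls (adjusted p = 0.00159). The strand setting of the counts is not known, so reads from Itgad and Cox6a2 cannot be told apart where they overlap. Of 27 other tested genes within 500 kb of Itgad, none passed, and Cox6a2 and Itgax were the 2 with an unadjusted p under 0.05.

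Plcb4 (chromosome 2, 135659011 to 136014593, plus strand) lies 183.8 kb beyond Plcb1, which encodes another phospholipase C beta and is the 1 other tested gene within 500 kb. Plcb1 lay at 0.952, 0.499, 0.353 and 0.69 CPM in CRE+ cDC1, against 0.0376 and 0.042 CPM in CRE- cDC1. All CRE+ libraries were above both controls, at 61 counts in CRE+ against 2 in CRE- cDC1, a ratio of 16 (95%, counting error only, 4.24 to 135). By edgeR the gene did not pass (adjusted p = 0.147), but it did with the controls of both lines pooled (log2 fold change 4.13, adjusted p = 0.00273). In the transgene line Plcb1 rose with Cre by 5.56 on the log2 scale in cDC1 (adjusted p = 9.69e-05) and by 6.72 in cDC2 (adjusted p = 3.76e-06). Zfp831 lies on chromosome 2 as well (174643534 to 174710832), and of 5 other tested genes within 500 kb none passed or had an unadjusted p under 0.05. In the fit of all 24 libraries, Itgad and Plcb4 passed as higher with Cre in both subsets of both lines. A fit of the 6 cDC1 libraries of the deletion line alone called neither, and the cause of the rises was not tested. Carrying Cre and the change of Zeb2 cannot be told apart within either line.

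Upstream sequences are shown for Id2, the gene in the series title, which did not pass in cDC1, and for Plcb4, which did. ZEB factors bind the E-box CACCTG, which reads CAGGTG on the other strand. The windows are the 250 bases before each RefSeq start (GRCm38.p6), 5′ to 3′ along the gene, with any copy of the motif in capitals. Of 4 genes looked up, Id2 and Plcb4 matched, and Itgad and Zfp831 are named only. For Plcb4 there were 2 starts.
Id2, chr12:25096093-25096342, minus strand: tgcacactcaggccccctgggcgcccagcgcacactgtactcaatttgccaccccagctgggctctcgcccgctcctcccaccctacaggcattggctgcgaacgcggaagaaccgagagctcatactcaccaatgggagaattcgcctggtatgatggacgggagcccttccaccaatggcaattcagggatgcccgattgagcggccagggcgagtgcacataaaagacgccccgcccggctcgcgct
Plcb4, start 1, chr2:135659297-135659546, plus strand: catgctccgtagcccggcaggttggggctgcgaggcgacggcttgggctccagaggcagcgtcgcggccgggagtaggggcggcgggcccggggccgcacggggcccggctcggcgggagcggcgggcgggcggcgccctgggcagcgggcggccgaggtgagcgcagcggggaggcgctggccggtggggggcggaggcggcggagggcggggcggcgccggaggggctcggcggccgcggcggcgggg
Plcb4, start 2, chr2:135764588-135764837, plus strand: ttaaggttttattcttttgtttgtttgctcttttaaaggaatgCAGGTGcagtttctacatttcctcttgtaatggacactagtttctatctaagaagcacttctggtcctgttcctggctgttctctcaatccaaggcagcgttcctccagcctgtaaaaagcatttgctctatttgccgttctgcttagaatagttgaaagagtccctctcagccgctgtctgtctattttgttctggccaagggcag
The 1 match was at position -207 from the second start of Plcb4. Either form of the motif occurred in 5657 of 32851 such windows (17.2%), and a match is a description of the letters, not of binding.

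Genes that changed in cDC2 were read in cDC1 next, since both subsets carried the same alleles. The 307 genes higher in CRE+ cDC2 had a median log2 fold change of 0.81 there and 0.03 in cDC1, beside 0.002 over all tested genes. In cDC1, 2 of them passed, Itgad and Plcb4, and 166 (54.1%) were above 0, beside 50.4% of all tested genes. At an unadjusted p under 0.05, 26 of the 307 were higher in CRE+ cDC1 and 11 lower. The 379 genes lower in CRE+ cDC2 had medians of -0.78 in cDC2 and -0.01 in cDC1, and none passed in cDC1 by edgeR. Of these, 196 (51.7%) were below 0, beside 48.8% of all tested genes. At an unadjusted p under 0.05, 21 of the 379 were lower in CRE+ cDC1 and 7 higher. Over all tested genes, 2.69% were higher and 2.12% lower at that level. Most were well measured: of 278 of the higher genes at 1 CPM or more in cDC1, 233 had an interval within 2-fold, and of 354 of the lower genes, 323 did. The test of the difference between the subsets called 142 genes (1.08%). It called 21 without CRE- 1 of cDC2, 51 without CRE- 1 of cDC1, 61 without CRE- 2 of cDC1 and 90 without CRE+ 1 of cDC1.

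**Figure D3:**
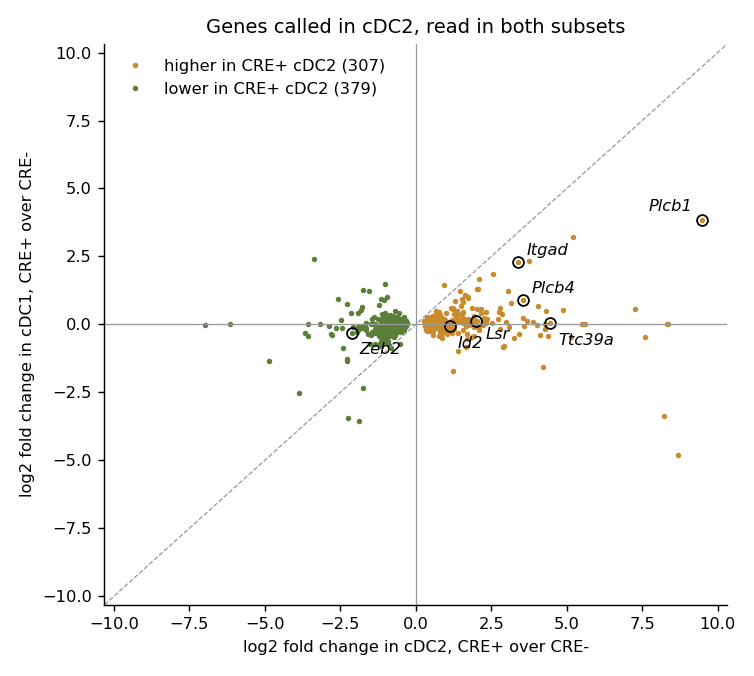
Log2 fold change of CRE+ over CRE- in cDC1 (vertical axis) against cDC2 (horizontal axis) for the 307 genes higher (orange) and 379 lower (green) in CRE+ cDC2, with 7 genes circled and named and the dashed line marking equal change. Most points lie along the horizontal line at 0, and Itgad, Plcb4 and Plcb1 stand above it.

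Several of the genes that moved in cDC2 were expressed in cDC1 at levels that did not follow. Ttc39a lay at 158, 186, 181 and 161 CPM in CRE+ cDC1, against 163 and 172 CPM in CRE- cDC1, with the groups overlapping. In cDC2 it lay at 8.72, 24.7, 11.6 and 15.8 CPM with Cre, against 0.784 and 0.615 CPM without, and the difference between the subsets was -4.39 (adjusted p = 1.37e-05). Lsr, a tricellular junction protein and lipoprotein receptor, showed overlap at 188, 253, 235 and 208 CPM in CRE+ cDC1, against 190 and 211 CPM in CRE- cDC1 (difference -1.87, adjusted p = 1.23e-05). For Snx22 and Cst3, which encodes the protease inhibitor cystatin C, the differences were -2.24 (adjusted p = 1.37e-05) and -1.16 (adjusted p = 1.38e-05). Each of these genes was higher in CRE+ cDC2 and did not pass in CRE+ cDC1.

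Genes that fell in CRE+ cDC2 gave the opposite sign of difference. Clec9a, the cDC1 receptor for dead cells, lay at 233, 229, 281 and 220 CPM in CRE+ cDC1, against 251 and 283 CPM in CRE- cDC1. In cDC2 it lay at 2.95, 1.27, 3.21 and 3.33 CPM with Cre, against 17.6 and 11.9 CPM without (difference 2.3, adjusted p = 0.000656). The scavenger receptor Cd36 lay at 816, 616, 1030 and 774 CPM in CRE+ cDC1, against 811 and 944 CPM in CRE- cDC1 (difference 1.63, adjusted p = 0.00222). Both genes overlapped between the cDC1 groups. The lysozyme genes Lyz1 and Lyz2 (differences 2.5 and 1.79, adjusted p = 1.22e-05 and 0.000531) share much of their sequence, so the split of reads between them is uncertain. For Chtf18, which helps load the replication clamp, the difference was 1.64 (adjusted p = 0.00213).

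Against the transgene line, the effect of Cre in cDC1 differed in 380 genes (2.89%). It differed in 169 without CRE- 1 and 234 without CRE- 2 of the deletion line, and in 215 without CRE- 2 of the transgene line. Ttc39a and Lsr, level with the deletion, were lower with the transgene, and their differences, deletion minus transgene, were 4.09 (adjusted p = 1.51e-06) and 2.15 (adjusted p = 1.51e-06). The actin cross-linker Actn1, the matrix protein gene Ltbp2 and the annexin Anxa6 gave 2.59 (adjusted p = 4.52e-06), 3.31 (adjusted p = 6.16e-06) and 1.11 (adjusted p = 2.92e-06). On the other side stood the transglutaminase Tgm2 (-3.95, adjusted p = 3.71e-06), the co-receptor Cd4 (-2.75, adjusted p = 1.19e-05), the inhibitory receptor Cd300a (-1.89, adjusted p = 4.52e-06) and Sat1, an enzyme of polyamine breakdown (-1.29, adjusted p = 2.92e-06). Hpgds, the haematopoietic prostaglandin D synthase, gave -2.96 (adjusted p = 7.18e-06). Zeb2 itself gave -4.27 (adjusted p = 0.000243), and -2.66 without CRE- 2 of the deletion line (adjusted p = 0.137).

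Of the 9222 genes that averaged at least 2 log2 CPM, 583 had every CRE+ library above both controls (6.32%) and 477 had every one below (5.17%). Those of smallest unadjusted p on the higher side after Itgad and Plcb4 did not pass. Eno3, the muscle form of the glycolytic enzyme enolase, lay at 45.9, 92.5, 56.8 and 44.1 CPM in CRE+ cDC1, against 19.2 and 31 CPM in CRE- cDC1 (1.25 on the log2 scale, adjusted p = 0.238 by edgeR and 0.00542 by DESeq2). Pygl, the liver form of glycogen phosphorylase, lay at 6.02, 23.7, 7.54 and 9.7 CPM in CRE+ cDC1, against 3.76 and 4.24 CPM in CRE- cDC1 (1.55, adjusted p = 0.603), with CRE+ 2 far above the rest. Mfge8, which bridges dying cells to phagocytes, lay at 10.1, 13.6, 8.25 and 15.7 CPM in CRE+ cDC1, against 5 and 7.31 CPM in CRE- cDC1 (0.95, adjusted p = 0.808). The remaining genes on this side were Ckap4, Lactb, B4galnt1 and S100a6 beside Itgax, with log2 fold changes of 0.42 to 0.85 other than Itgax and adjusted p of 0.498 to 0.815.

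On the lower side, the gene with the smallest p was Gm11837, an antisense gene. It lay at 5.6, 5.03, 6.35 and 4.87 CPM in CRE+ cDC1, against 15.3 and 13.6 CPM in CRE- cDC1, and its reads cannot be told apart from those of the opposite strand. Tmem231, a protein of the ciliary base, lay at 18.7, 17.3, 23.4 and 16.4 CPM in CRE+ cDC1, against 26.4 and 28.7 CPM in CRE- cDC1 (-0.54, adjusted p = 0.808). Dst and Bhlhe41 owed their distance to 1 control. Bhlhe41, a transcription repressor, lay at 38.4, 38.8, 34 and 31 CPM in CRE+ cDC1, against 192 and 54.6 CPM in CRE- cDC1, and Dst, a cytoskeletal linker, at 33.8, 26.5, 30.3 and 23.5 CPM, against 119 and 43.3 CPM. CRE- 1 was the high library for both genes. The others were Prkar2b, Clk1, Smpdl3a, Arhgap19, Zfp953 and Bmi1, at log2 fold changes of -0.73 to -0.35 and an adjusted p of 0.815 each. Outside this choice, Hpgds lay at 1.49, 1.21, 2.16 and 1.25 CPM in CRE+ cDC1, against 3.64 and 2.94 CPM in CRE- cDC1, which passed by DESeq2 (adjusted p = 0.0175) and not by edgeR (log2 fold change -1.11, adjusted p = 0.139).

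In the edgeR fit of all 24 libraries, no member of the 22 gene lists passed in CRE+ cDC1. Cox6a2 passed in the other fits named above, and Jchain and Ube2c in some fits, as given below. Counts at an unadjusted p under 0.05 are given beside the shares over all tested genes, 2.69% higher and 2.12% lower, and list medians beside the median of all tested genes, 0.00157. Of 23 cDC1 identity genes, 1 was lower and none higher at that level, with a median log2 fold change of -0.0729, and 20 had an interval within 2-fold. The mean of the list was 8.86, 8.8, 8.92 and 8.77 log2 CPM in CRE+ cDC1, against 8.94 and 8.96 in CRE- cDC1, so every CRE+ library lay slightly below both controls. The one gene was Cd207 (langerin), at 23, 25.6, 31.1 and 21.6 CPM in CRE+ cDC1, against 36.2 and 53 CPM in CRE- cDC1 (-0.82, adjusted p = 0.963). All 14 tested genes of major histocompatibility complex (MHC) class II presentation had an interval within 2-fold (median 0.0422), and so had 17 of 18 genes of cross-presentation and MHC class I (median 0.109). Among these, the thiol reductase gene Ifi30 and the immunoproteasome subunit Psmb10 were the 1 in each list at an unadjusted p under 0.05. The mean of the cross-presentation and MHC class I list was 9, 9.03, 9 and 8.94 log2 CPM in CRE+ cDC1, against 8.78 and 8.93 in CRE- cDC1. Every CRE+ library thus lay slightly above both controls for that list. Of 28 lineage transcription factors, 2 were higher at that level, Relb and Spib, with a median of 0.0779.

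Maturation and cell cycle genes leaned furthest among the lists of well expressed genes, and both medians moved with the libraries included. Of 21 tested maturation genes, 4 were higher and none lower at an unadjusted p under 0.05, with a median log2 fold change of 0.223, and -0.009 without CRE+ 2. Of 20 cell cycle genes, 4 were lower and none higher, with a median of -0.196 (-0.081 without CRE- 1, -0.119 without CRE+ 3, -0.162 without CRE+ 2 and -0.44 without CRE- 2), and 19 had an interval within 2-fold. Ube2c, which tags mitotic proteins for destruction, lay at 14.1, 9.65, 7.54 and 11.6 CPM in CRE+ cDC1, against 18.1 and 13.4 CPM in CRE- cDC1, with overlap (-0.55, adjusted p = 0.963). It passed as lower with the controls of both lines pooled (-1.11, adjusted p = 0.0484), where the cDC1 controls of the transgene line held 27.4 and 34 CPM. Of the same 20 genes, 18 fell in CRE+ cDC2 (median -0.912) and 11 rose in cDC1 with the transgene (median 0.701). Birc5 and Plk1, also mitotic genes, had log2 fold changes of -0.45 and -0.67 in CRE+ cDC1 (adjusted p = 0.996 each). The difference between subsets did not pass for Ube2c (0.5, adjusted p = 0.445), Birc5 (0.56, adjusted p = 0.422) or Plk1 (0.49, adjusted p = 0.691).

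The other lists gave no more. Among 22 interferon response genes, whose median was 0.0477, Ifit2 was lower at an unadjusted p under 0.05 (log2 fold change -0.71, adjusted p = 0.963), while none of 20 heat shock and early response genes passed that level (median 0.137). Of 10 tested epithelial genes known as ZEB targets, 1 was lower (Ocln, at most 0.84 CPM in any library) and the median was -0.252, with 4 intervals within 2-fold. The TGF-beta pathway had 1 higher and 1 lower of 19 (median -0.0622), both under 1 CPM, and of 6 tested E and Id protein genes Id3 was higher, at 1.33 to 2.07 CPM in CRE+ cDC1, against 0.263 and 0.84 CPM in CRE- cDC1. The cDC2 identity list had 2 higher of 24, Itgax and Relb (median 0.105).

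Lists of markers of other cells were read next, and in sorted bulk samples fewer cells of a type and less RNA per cell cannot be told apart. Of 12 tested B and plasma cell markers, 1 was lower at an unadjusted p under 0.05, Jchain, the joining chain of secreted antibodies. It lay at 1.49, 0.79, 0.926 and 1.51 CPM in CRE+ cDC1, against 10.4 and 11.3 CPM in CRE- cDC1. The groups did not overlap, and the gene did not pass (log2 fold change -3.19, adjusted p = 0.808). It passed in the fit of these 6 libraries alone (adjusted p = 0.00732) and in that of the 12 libraries of the deletion line (adjusted p = 0.0218). With the controls of both lines pooled it passed as well (adjusted p = 0.0441). Summed over the list, these markers stood at 270.6 to 339.7 CPM in CRE+ cDC1, against 317.5 and 320.6 CPM in CRE- cDC1. A sum, here and for the lists below, follows the most abundant members. The mean of the list was 0.75, 0.25, 1.72 and 1.51 log2 CPM in CRE+ cDC1, against 1.74 and 1.32 in CRE- cDC1, with overlap. The B cell receptor gene Cd79a stood at 0.624 to 4.32 CPM in CRE+ cDC1, against 4.73 and 3.91 CPM in CRE- cDC1. In cDC1 of the transgene line Jchain lay at 1.91, 9.28, 10.4 and 7.8 CPM with Cre, against 57.5 and 19 CPM without it. It passed there as lower with Cre by edgeR (log2 fold change -2.39, adjusted p = 0.0426). In cDC2 the log2 fold changes were -1.9 with the deletion and -1.88 with the transgene, and neither passed (adjusted p = 0.249 and 0.365). The part of other cells in the lower level of Jchain was not tested. Neutrophil markers summed to 2.932 to 8.203 CPM in CRE+ cDC1, against 6.763 and 5.042 CPM in CRE- cDC1, and T cell markers to 20.72 to 33.23 CPM, against 16.16 and 20.96 CPM. Of 20 markers of plasmacytoid dendritic cells (pDC), 2 were higher at an unadjusted p under 0.05 (Cox6a2 and Spib), and Siglech, which marks these cells, stood at 0.0882 to 0.665 CPM in CRE+ cDC1, against 0.413 and 0.336 CPM in CRE- cDC1. Monocyte markers summed to 2739 to 4691 CPM in CRE+ cDC1, against 3414 and 3983 CPM in CRE- cDC1, pDC markers to 329.8 to 403.6 CPM, against 296 and 349.7 CPM, and red pulp macrophage markers to 357 to 451 CPM, against 336 and 412 CPM. For each of these 3 lists the groups overlapped. Of 18 monocyte markers, 3 were higher (Ace, Fn1 and F13a1) and 2 lower (Cd300e and Chil3). Of 14 T cell markers, 2 were higher (Cd8b1 and Tcf7), and of 9 erythroid and platelet markers, Slc4a1 was lower. No red pulp macrophage (16), NK cell (10), neutrophil (10) or mast cell and basophil (2) marker had an unadjusted p under 0.05. The list medians were -0.205 for B and plasma cells, -0.0984 for T cells, 0.156 for pDC, 0.0606 for monocytes, 0.0383 for red pulp macrophages, 0.0685 for NK cells and 0.188 for erythroid cells and platelets.

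The 6 libraries were also compared with each other. The principal components held 26.4, 20.5, 19.5, 17.7 and 15.9% of the variance, and the CRE+ libraries all lay above both controls on the first (-11.7 to 55.4 in CRE+, against -20.4 and -13.3 in CRE-) but not on the second or the third. The closest pair of libraries was CRE+ 3 and CRE- 2, from different groups, with a chi-square per gene of 12.47. The most distant was CRE+ 2 and CRE- 1, at 54.58. Genes with under 20 counts in the 2 libraries together were left out of each chi-square. All 15 pairs differed by more than counting noise, which says that none was the same library deposited again, not that the libraries came from separate mice. Over the 9222 genes averaging 2 log2 CPM or more, the median SD of log2 CPM within groups was 0.159. Of these genes, 289 (3.13%) had an SD over 0.5 (216 without CRE+ 2).

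CRE+ 2 carried higher levels of maturation genes. It was the highest of the 6 libraries for 18 of 21 maturation genes, and for 23.1% of all tested genes. The chemokine receptor Ccr7, which brings dendritic cells to T cell zones, lay at 627, 2070, 728 and 503 CPM in CRE+ cDC1, against 492 and 767 CPM in CRE- cDC1. Fscn1, an actin-bundling protein of mature dendritic cells, lay at 211, 698, 246 and 247 CPM in CRE+ cDC1, against 106 and 198 CPM in CRE- cDC1 (log2 fold change 1.2, adjusted p = 0.996). The chemokine gene Ccl5 lay at 18.1, 81.6, 21.2 and 24.9 CPM in CRE+ cDC1, against 9.96 and 12.9 CPM in CRE- cDC1 (1.68, adjusted p = 0.963). For all 3, CRE+ 2 was far above the other 5 libraries. The other CRE+ libraries overlapped the controls for Ccr7 and lay above them for Fscn1 and Ccl5. The co-stimulatory gene Cd86 did not follow, at 506, 483, 504 and 476 CPM in CRE+ cDC1, against 505 and 493 CPM in CRE- cDC1. The list mean was 5.78, 6.61, 5.87 and 5.56 log2 CPM in CRE+ cDC1, against 5.46 and 5.83 in CRE- cDC1. CRE+ 2 was also the highest library for 12 of 20 heat shock and early response genes, and for 11 of 18 genes of cross-presentation and MHC class I, while for 9 of 20 cell cycle genes it was the lowest. CRE+ 3 was the lowest for the other 11 cell cycle genes, and CRE- 1 was the highest for 11 of 20 and the lowest for 11 of 14 MHC class II genes. Over all tested genes, the lowest value lay in CRE+ 2 for 20.9%, in CRE+ 3 for 15.9% and in CRE- 1 for 18.6%. The highest lay in CRE- 1 for 18.8%.

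**Figure D4:**
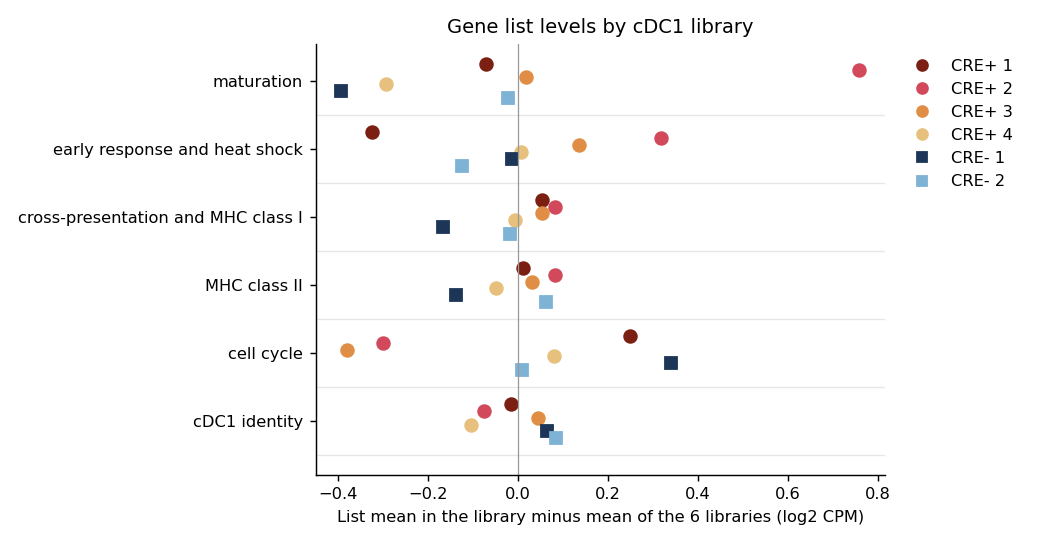
Mean log2 CPM of 6 gene lists in each library, minus the mean over the 6 libraries (horizontal axis), with circles for CRE+ 1 to 4 and squares for CRE- 1 and 2. CRE+ 2 lies far to the right for maturation, CRE+ 2 and CRE+ 3 to the left for the cell cycle, and the cDC1 identity list is narrow.

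Among the 9222 genes averaging 2 log2 CPM or more, 41 were over 2-fold higher in CRE+ 2 than in each of the other 5 libraries. In the same library 11 were over 2-fold lower, against 0 to 5 per direction in any other library. For 29 of the 41 and 6 of the 11, the cDC2 library of the same number was likewise the highest or the lowest of the 6 cDC2 libraries of the line. Among the 41 were the cytokine receptor gene Il21r (44.6, 149, 41.1 and 43.4 CPM in CRE+ cDC1, against 31.4 and 43 CPM in CRE- cDC1) and Tnfrsf4, which encodes OX40 (15.4, 64.8, 16.4 and 19.4 CPM, against 10.8 and 15.8 CPM). Among the 11 was the lectin gene Cd209a, at 5.75, 1.75, 15.7 and 10.1 CPM in CRE+ cDC1, against 5.45 and 9.58 CPM in CRE- cDC1, which belongs to a family of similar genes.

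Other libraries had marks of their own, some shared with the cDC2 library of the same number. In CRE+ 4, Dennd3, an activator of Rab GTPases, lay at 0.561 CPM, against 6.7 to 21.3 CPM in the other CRE+ cDC1 and 14.7 and 19.7 CPM in CRE- cDC1. In cDC2 it lay at 14.2 CPM in CRE+ 4 and 105 to 208 CPM in the other CRE+ libraries, against 222 and 200 CPM in CRE- cDC2. Dxo, an RNA decapping enzyme, was low in CRE+ 4 of both subsets (1.42 CPM in cDC1 and 0.851 CPM in cDC2), and Pfas, an enzyme of purine synthesis, was high in both (40.1 and 30.2 CPM). The MHC pseudogene H2-K2, whose reads are hard to assign among related genes, lay at 1.25 CPM in CRE+ 4. In CRE+ 1, Rsrp1 lay at 333 CPM, against 102 to 159 CPM in the other 5 libraries, and at 292 CPM in the cDC2 library of the same number. CRE- 2 held 85.7 CPM of Ctse, the aspartic protease cathepsin E, against 4.23, 5.61, 5.56 and 4.31 CPM in CRE+ cDC1 and 4.25 CPM in CRE- 1. In cDC2 Ctse was likewise highest in CRE- 2, at 12.6 CPM, against 0.784 CPM in CRE- 1 and 1.47 to 2.79 CPM in CRE+ cDC2. Of the 5 genes over 2-fold lower in CRE- 2 than in all other cDC1 libraries, 2 were also lowest in the cDC2 library of the same number. The log2 fold change of Ctse was -3.19 (adjusted p = 0.223), and 0.23 without CRE- 2.

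**Figure D5:**
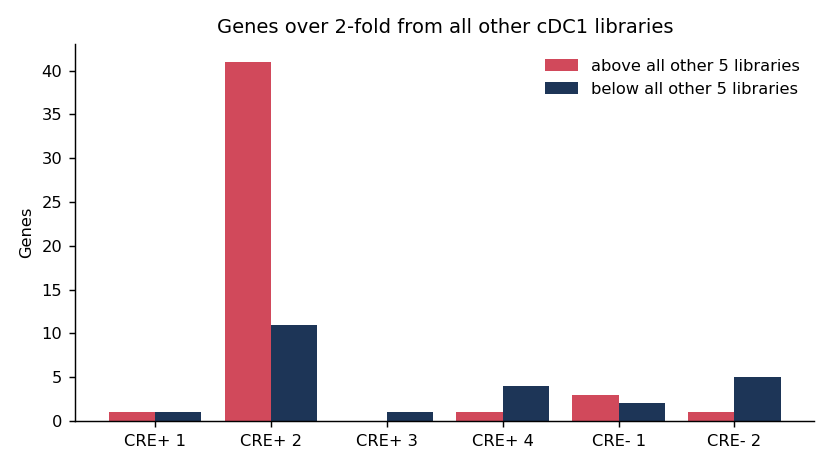
Number of genes (vertical axis, from 0) over 2-fold above or below all other 5 cDC1 libraries, for each library, counted over the 9222 better expressed genes. CRE+ 2 has 41 above and 11 below, and the other 5 libraries have 0 to 5 each.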

How the data were processed

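Per the labels' protocols, cDNA was made with the SMART-Seq v4 kit and sequenced as single reads. Per the submitters' processing notes, FastQC 0.11.4, Trimmomatic 0.35, TopHat2 2.1.0 and SAMtools 0.1.18 were used, with mm10 as the build. The deposited files hold whole counts per gene symbol as the authors made them, without scaling. How reads were counted, on which annotation and with which strand setting, is not given in the sources used here. The 5 lines that name no gene were left out of totals and tests, and their largest share, reads in no gene, is given above.

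Genes were kept by filterByExpr (minimum count 10, minimum total 15), scaled by TMM and fitted as 8 group means over all 24 libraries with edgeR 4.0.16 in R 4.3.3 (glmQLFit, glmQLFTest). The 8 groups shared 1 estimate of the spread because 2 controls give few degrees of freedom. P-values were adjusted by Benjamini-Hochberg over all 13166 genes at 0.05. CPM values are TMM-scaled, log2 CPM used a prior count of 2, and SE and intervals come from the fitted model. Counting intervals cover counting error only. DESeq2 1.42.0 was an alternative. Code was tested on simulated data. Positions are from GENCODE M21 (GRCm38), and sequences from RefSeq.

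Named genes were Zeb2, Zeb1, Id2 and the E and Id proteins, every gene that passed, the 10 per direction of smallest unadjusted p without overlap, up to 3 per list, the 15 of largest spread, and the leading genes of both differences and of cDC2. Others were chosen after their values were seen. Groups, lists and rule were chosen with earlier results of these data known. One member of the interferon response list is not reported here.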

Additional observations from a re-analysis of the deposited data

Results flagged for a closer look

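Each set of 4 CRE+ cDC1 values was checked for a library far from the other 3, as the gap to the nearest library over the whole range. Of 107 sets, 9 stood out. Chance flags about 1 in 20 of sets chosen without regard to spread, but these included genes chosen for their spread, so the count cannot be read against that rate. CRE+ 2 was the highest for Relb (0.894), Ccl5 (0.893) and Fscn1 (0.926). CRE+ 4 was the lowest for H2-K2 (0.833) and the highest for Coch (0.857). CRE+ 3 was the highest for Lyz2 (0.875), Ltbp2 (0.831) and Gas2l3 (0.909), and CRE+ 1 for Clec12a (0.857).

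Differences between Cre effects that passed edgeR's test with Benjamini-Hochberg adjustment were as follows, in log2 units. The deletion effect in cDC1 minus that in cDC2 was -2.66 for Plcb4, -4.39 for Ttc39a, -2.24 for Snx22, -1.87 for Lsr and -1.16 for Cst3. It was 2.5 for Lyz1, 1.79 for Lyz2, 2.3 for Clec9a, 1.64 for Chtf18 and 1.63 for Cd36. The Cre effect in cDC1, deletion minus transgene, was 4.09 for Ttc39a, 3.31 for Ltbp2, 2.59 for Actn1, 2.15 for Lsr and 1.11 for Anxa6. It was -3.95 for Tgm2, -2.96 for Hpgds, -2.75 for Cd4, -1.89 for Cd300a and -1.29 for Sat1.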

How the results depend on the processing

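The 3 higher and 0 lower genes became 5 and 2 by DESeq2, 0 and 1 in a fit of the compared libraries alone, 1 and 0 in a fit of the 12 cDC1 libraries, 5 and 1 in a fit of the 12 libraries of the deletion line, and 6 and 2 with controls of both lines pooled. Leaving out 1 library at a time gave 1 to 3 higher (1 without CRE- 2) and 0 to 2 lower genes (2 without CRE- 1). The log2 fold change of Zeb2 ran from -1.1 to 1.31 when 1 library was left out, and reversed to 1.31 without CRE- 2. That of Id2 ran from -0.19 to 0.06, reversed without CRE- 1, and was 0.02 with pooled controls. Ctse ran from -4.13 to 0.23 and reversed without CRE- 2. The 142 genes that differed between subsets became 336 by DESeq2 and 21 to 161 with 1 library left out. The 380 that differed between lines became 601 by DESeq2, 209 in a fit of the compared libraries alone and 169 to 412 with 1 library left out. The cause of these shifts was not tested, beyond fewer samples in the smaller fits. The count of 289 genes with a large SD ran from 216 to 323.

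Replicate numbers were not taken as pairs: deviations of same-numbered cDC1 and cDC2 libraries correlated at 0.207 to 0.35 in the 4 CRE+ pairs, each library best with its own number, but at -0.0586 in the controls. With the replicate block, 4 genes were higher and 0 lower in cDC1, 140 differed between subsets and 372 between lines.

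Beside Zeb2 and Id2, 40 named genes were recomputed in the alternative fits, which gave 599 pairs of gene and fit. Among these, 1 value reversed (Ctse), 10 lost a call and 15 gained one. The 20 leading differences kept their direction and call in all 360 pairs of difference and fit. Of the other printed differences, recomputed by a choice made after seeing the data, Id2 between subsets lost its call in 2 of 18, Itgad between lines in 8 and Zeb2 between lines in 1. Depth and 2 controls limit genes under about 1 CPM.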
